A study of Mus musculus with 6 samples.

Results

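The hepatocyte moves bile salts, drug conjugates, phospholipids and sterols out of the cell with ATP-binding cassette (ABC) pumps, and 10 of their genes were examined in mouse liver: Abcb1a, Abcb4, Abcb11, Abcc2, Abcc3, Abcc6, Abcg2, Abcg5, Abcg8 and Abca1. A probe set, the group of oligonucleotides that reports a transcript on the array, was taken for each place where the platform annotation gave one of these symbols. All 10 genes were present, with 13 of the 22690 probe sets: 8 genes had 1 probe set, Abcb1a had 2 and Abca1 had 3. The 13 symbols matched a RefSeq gene table through the Entrez ID. Of the 13 probe sets, 12 were bright enough to be tested, and the other, 1450392_at of Abca1, was not.

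Liver total RNA of Swiss-Webster mice, an outbred stock, was measured on 6 Affymetrix MOE430A arrays, in 3 groups of 2. Control diet was given to one group. The other groups ate a diet with 1% of a fraction for 21 days, either fraction 1 (hexane) or fraction 2 (methanol), in a series titled for Boswellia serrata, the tree of Indian frankincense. The age and sex of the mice are not in the labels, and nothing there says whether a replicate was a single animal or a pool, so the p-values describe no more than the spread among these arrays, which may be technical.

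ABC pumps use ATP to drive their cargo across a membrane, and in the hepatocyte they are sorted to opposite faces. On the canalicular face, which borders the bile, sit the bile salt export pump (Abcb11), the conjugate pump MRP2 (Abcc2), the phospholipid floppase (Abcb4), P-glycoprotein (Abcb1a), the breast cancer resistance protein (Abcg2) and the sterol pump formed by Abcg5 with Abcg8. On the basolateral face, which borders the blood, sit MRP3 (Abcc3), MRP6 (Abcc6) and the cholesterol and phospholipid exporter Abca1. Several of the genes are textbook targets of nuclear receptors and of Nrf2, a regulator of antioxidant defence: Abcc2 and Abcc3 of CAR, PXR and Nrf2, Abcb11 of FXR, and Abcg5, Abcg8 and Abca1 of LXR.

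Median signals of the arrays ran from 139.3 to 167.2 array units, and the limited number of arrays sets the precision. Albumin, the main secreted protein of hepatocytes, read 18755 to 27250.4 array units. The arrays came from 3 chip lots and 2 scan batches: batch 2 held control replicate 1 together with replicate a of fraction 2, and batch 1 the other 4. Control replicate 2 stood apart in a sign of RNA quality, with an actin 3'/5' signal ratio of 3.87 against 2.13 to 2.64 in the other arrays. Signals from bulk liver cannot tell fewer cells of a type apart from less RNA per cell.

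Among the pumps the clearest differences from control were those of the conjugate pumps Abcc3 and Abcc2, whose signals were higher on every array of both fractions. Abcc3 rose after fraction 2, by 2.59-fold, and was the 1 member that passed the test across all probe sets. That call lay at the edge of the threshold (limma, adjusted p = 0.0488) and did not hold under most alternatives of processing. Abcb1a also read higher with both fractions, by 1.46-fold to 1.68-fold, and Abcg5 read lower, at 0.751 and 0.692 of control, but these differences did not pass. Abcb11, Abcb4, Abcc6, Abcg8, Abcg2 and the brighter Abca1 probe set lay within 1.21-fold of control in either direction, and none of them passed.

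**Figure D1:**
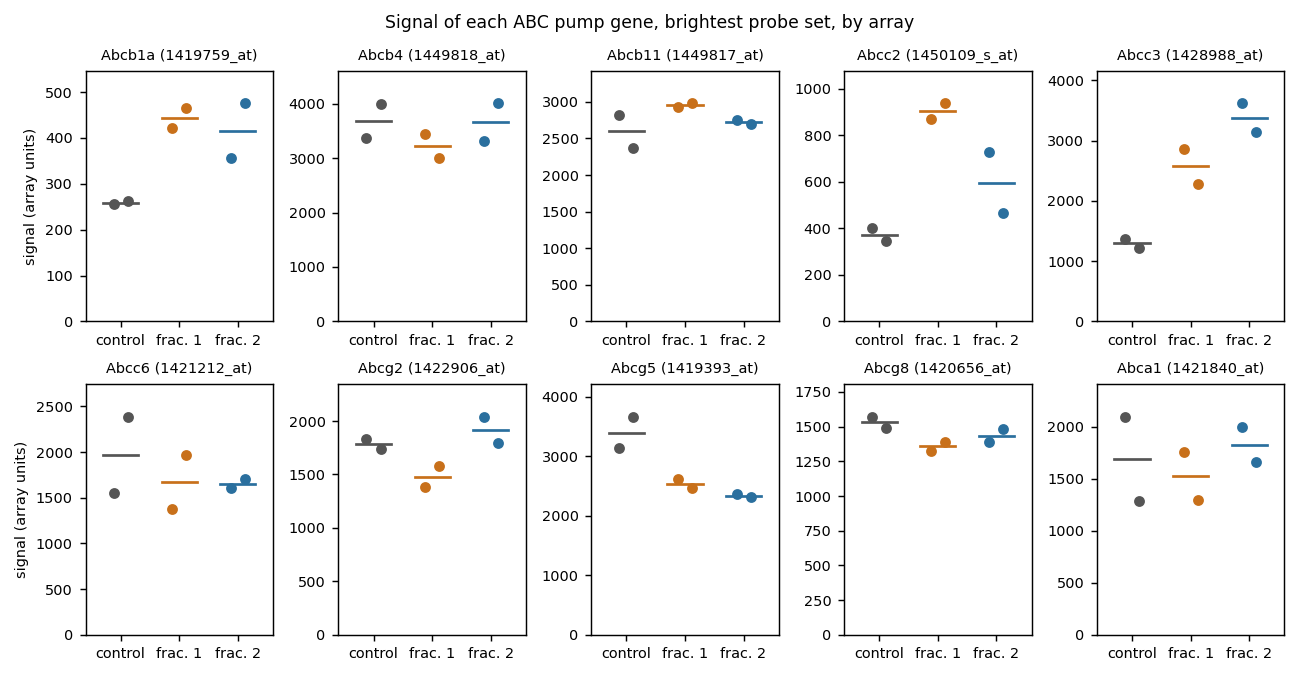
Signal in array units (linear axis from 0) of the brightest probe set of each of the 10 genes, with a point for each array and a line at the mean of the 2 arrays of a group. Abcc3, Abcc2 and Abcb1a lie higher on all 4 fraction arrays than on both control arrays. Abcg5 and, by small margins, Abcg8 lie lower on all 4. The scale differs between panels and levels of different genes are not comparable.

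Abcc3 carries glucuronides and bile salts from the hepatocyte to the blood. Its signal was 1371.7 and 1220.6 array units in control replicates 1 and 2, 2857.6 and 2286.9 in fraction 1 replicates a and b, and 3618.4 and 3144.2 in fraction 2 replicates a and b. The 3 groups did not overlap, with control lowest and fraction 2 highest. The means were 1296 ± 107 in control, 2572 ± 404 after fraction 1 and 3381 ± 335 after fraction 2 (SD, n = 2). After fraction 2 the log2 fold change was 1.37 ± 0.18 (SE; limma, adjusted p = 0.0488), on the scale of log2(signal + 16), as are all fold changes here.

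After fraction 1 Abcc3 stood at 0.97 ± 0.18, with an adjusted p of 0.0644. Within scan batch 1 its log2 difference from control was 1.06 after fraction 1 and 1.35 after fraction 2, and within batch 2 it was 1.39 after fraction 2. Blocking on scan batch put fraction 1 at 1.07 (adjusted p = 0.0478) and fraction 2 at 1.37 (adjusted p = 0.0254). Blocking on chip lot put fraction 1 at 1.12 (adjusted p = 0.0478) and fraction 2 at 1.48 (adjusted p = 0.0549). The direction held in all 18 alternatives of processing for each fraction, but the call after fraction 2 held in only 4 of the 18, with adjusted p from 0.0254 to 0.425. It was lost whichever of the 6 arrays was left out: the adjusted p was 0.0548 and 0.138 without control replicates 1 and 2, 0.112 and 0.106 without fraction 1 replicates a and b, and 0.425 and 0.277 without fraction 2 replicates a and b.

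Abcc2 moves glutathione, glucuronide and sulfate conjugates and conjugated bilirubin into bile. Its probe set, 1450109_s_at, is of a type (_s_at) that can match several related transcripts. The signal was 399.9 and 345.3 array units in control replicates 1 and 2, 868 and 936.8 in fraction 1 replicates a and b, and 727.9 and 465.4 in fraction 2 replicates a and b. Every fraction array was above both controls, and the fraction 2 arrays lay far apart. The log2 fold change was 1.24 ± 0.24 after fraction 1 (adjusted p = 0.0699) and 0.63 ± 0.24 after fraction 2 (adjusted p = 0.673), so neither passed. Blocking took the fraction 1 value past the threshold, at 1.45 for scan batch (adjusted p = 0.0305) and 1.47 for chip lot (adjusted p = 0.0497). The other 16 of 18 alternatives did not pass, with adjusted p from 0.055 to 0.458; it was 0.458 without fraction 1 replicate b, 0.225 without replicate a, 0.197 with no variance trend and 0.0659 within scan batch 1 alone. The direction held in all 18. Within batch 1 it was 1.34 for fraction 1 and 0.41 for fraction 2, and within batch 2 it was 0.84 for fraction 2.

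The 250 bases before the start of Abcc2 are shown because this gene and Abcc3 were the members that stood furthest above control. They come from RefSeq (build GRCm38.p6, chr19:43782058-43782307, plus strand), 5′ to 3′, and capitals mark matches to the motifs TGACNNNGC, the core of the antioxidant response element, and AGGTCA, a core motif of nuclear receptor binding.
Abcc2: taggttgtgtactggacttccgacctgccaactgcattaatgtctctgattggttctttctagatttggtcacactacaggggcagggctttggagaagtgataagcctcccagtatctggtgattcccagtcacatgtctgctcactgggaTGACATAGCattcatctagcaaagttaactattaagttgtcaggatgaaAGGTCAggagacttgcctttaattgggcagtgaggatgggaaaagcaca
The TGACNNNGC match begins 98 bases before the start and the AGGTCA match 49 bases before it, and they do not overlap. On both strands of windows from 250 bases before to 50 bases after a start, TGACNNNGC stood in 12.4% of 32851 windows and AGGTCA in 16.3%. A related core motif, AGTTCA, stood in 14% of them and not in the Abcc2 window. The table held 8 of the 10 members with 11 windows, of which 2 had TGACNNNGC (Abcc2 and Abcb1a), 4 had AGGTCA (Abcb11, Abcc2 and Abcg2 in 2 of its windows) and 6 had AGTTCA. Abcc3 and Abcc6 had no window there, so they were not searched for motifs. The windows of Abcg5 and of the nearest start of Abcg8 overlap, and the same AGTTCA match is counted in both. A match describes letters in a window and is not evidence of binding.

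Abcb1a encodes a P-glycoprotein, which exports bulky hydrophobic drugs. The brighter probe set, 1419759_at, read 255.7 and 262.5 array units in control, 420.8 and 465.2 after fraction 1 and 356.2 and 475.3 after fraction 2 (replicates a and b). The dimmer one, 1419758_at, read 102.8 and 105 in control, 140.8 and 179.3 after fraction 1 and 185.7 on both fraction 2 arrays. In both probe sets each fraction array was above both controls. The brighter stood at 0.74 ± 0.21 (adjusted p = 0.19) and 0.64 ± 0.21 (adjusted p = 0.607) after fractions 1 and 2, and the dimmer at 0.55 ± 0.26 (adjusted p = 0.458) and 0.75 ± 0.26 (adjusted p = 0.647). No alternative passed the threshold, and none turned the sign of either. Abcb1b, a close copy of this gene, was too dim to be tested, at 2 to 24.4 array units over the 6 arrays.

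Abcb11 sets the rate of bile salt secretion, and Abcb4 supplies the phosphatidylcholine that shields the bile ducts from those salts. Abcb11 read 2822.1 and 2374.3 array units in control, 2933.1 and 2980 after fraction 1 and 2747.3 and 2699.6 after fraction 2. Its log2 fold change was 0.19 after fraction 1 (95% confidence interval -0.17 to 0.55, adjusted p = 0.695) and 0.07 after fraction 2 (-0.29 to 0.43, adjusted p = 0.93). Both fraction 1 arrays were above both controls, whereas fraction 2 lay between the controls. Abcb4 read 3373.4 and 3984.3 in control, 3442 and 2995.7 after fraction 1 and 3304.7 and 4004.2 after fraction 2, with overlapping groups. It stood at -0.19 (-0.58 to 0.20) and -0.01 (-0.40 to 0.38), with adjusted p of 0.724 and 0.991. For these 2 pumps a change of 2-fold lay outside the intervals, which are not adjusted for the number of probe sets.

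Abcg5 and Abcg8 each make up one side of a pump that works only as a pair and secrete cholesterol and plant sterols into bile. Their genes are neighbours that point away from each other, with 109 bases between the start of Abcg5 on the minus strand and the nearest start of Abcg8 on the plus strand. This stretch is shown because the genes share it on their 5′ sides (RefSeq, build GRCm38.p6, chr17:84683012-84683120, plus strand). It holds none of the 3 motifs, so nothing is in capitals.
Abcg5 to Abcg8: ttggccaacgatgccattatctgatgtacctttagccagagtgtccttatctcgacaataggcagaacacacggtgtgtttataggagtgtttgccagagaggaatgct
Abcg5 read 3130.1 and 3662.5 array units in control, 2617.3 and 2462.3 after fraction 1 and 2358.4 and 2317.6 after fraction 2. The 3 groups did not overlap, with fraction 2 lowest. Its log2 fold change was -0.41 ± 0.16 after fraction 1 (adjusted p = 0.326) and -0.53 ± 0.16 after fraction 2 (adjusted p = 0.535). The sign held in all 18 alternatives of each comparison and the threshold was passed in none.

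Abcg8 read 1572 and 1490.3 array units in control, 1326.5 and 1389.9 after fraction 1 and 1388.3 and 1483.5 after fraction 2. Every fraction array was below both controls, by small margins. The log2 fold changes were -0.17 ± 0.16 (adjusted p = 0.746) and -0.09 ± 0.16 (adjusted p = 0.91), and centring each array on its median turned the latter to 0.023. The log2 value of Abcg5 minus that of Abcg8, which describes the pair within an array, was 0.99 and 1.29 in control, 0.97 and 0.82 after fraction 1 and 0.76 and 0.64 after fraction 2. It was lower on each fraction array than on either control array, though fraction 1 replicate a (0.972) lay next to control replicate 1 (0.986). How often other pairs of probe sets part in this way was not tested.

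Abcg2, which exports sulfate conjugates, urate and many drugs, read 1835.7 and 1742.7 array units in control, 1381.6 and 1575.3 after fraction 1 and 2041.3 and 1792.8 after fraction 2. Both fraction 1 arrays were below all the others, and fraction 2 overlapped control. It stood at -0.28 ± 0.17 (adjusted p = 0.574) after fraction 1 and 0.10 ± 0.17 (adjusted p = 0.909) after fraction 2. Abcc6, whose loss causes soft tissue calcification through low release of ATP from the liver, read 1554.4 and 2387.1 in control, 1372.9 and 1970.1 after fraction 1 and 1610.4 and 1699.5 after fraction 2. The control arrays lay further apart than either fraction stood from control. Its log2 fold changes were -0.23 ± 0.25 and -0.22 ± 0.25 (adjusted p = 0.786 and 0.858), and without control replicate 2 they became 0.081 and 0.089.

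Abca1 loads cholesterol and phospholipid onto apolipoprotein A-I, the first step in making high-density lipoprotein. It had 3 probe sets. The brightest, 1421840_at, read 2097 and 1283 array units in control, 1759 and 1298.9 after fraction 1 and 1995.4 and 1659.8 after fraction 2, and the groups overlapped. It stood at -0.12 ± 0.26 and 0.15 ± 0.26 (adjusted p = 0.915 and 0.909). Leaving out control replicate 1 turned the first of these to 0.23, and leaving out control replicate 2 turned the second to -0.20. The dimmer 1421839_at read 82.1 and 142.9 in control, 99.1 and 117 after fraction 1 and 72.1 and 45.3 after fraction 2. It stood at -0.01 ± 0.43 after fraction 1 and at -0.76 ± 0.43 after fraction 2 (adjusted p = 0.994 and 0.765). This probe set reached the 40th percentile of the array, the mark for testing, on only 2 of the 6 arrays. These were control replicate 2 and fraction 1 replicate b. Both fraction 2 arrays were under the mark. It still counts below as lower after fraction 2 than in control and as higher with fraction 1 than with fraction 2. The untested 1450392_at read 5.8 to 48.7 over the 6 arrays.

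**Figure D2:**
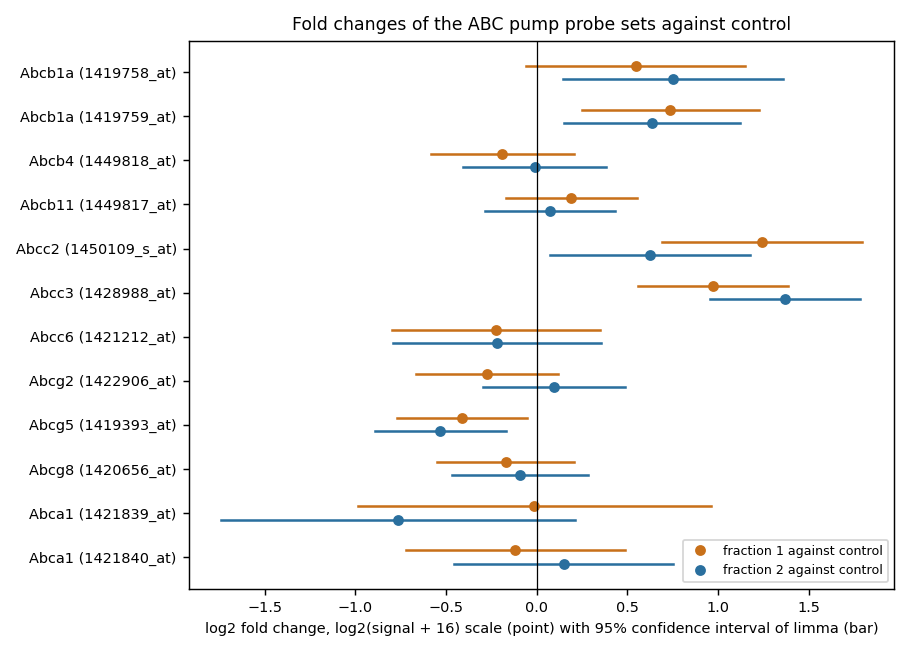
Log2 fold changes of the 12 tested probe sets against control (points) with 95% confidence intervals of limma that are not adjusted for multiple testing (bars), on the log2(signal + 16) scale. The interval of Abcc3 lies furthest above 0 after fraction 2 (0.96 to 1.79), Abcg5 lies below 0 with both fractions, and the dim Abca1 probe set has the widest bars.

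Over the members, none of 12 tested probe sets passed after fraction 1 with limma, where 0.712% of all 14755 tested probe sets did, and 4 had an unadjusted p under 0.05 (Abcc2, Abcc3, the brighter Abcb1a probe set and Abcg5), where 12.4% of all did. After fraction 2, 1 of 12 passed and was higher, where 0.108% of all passed and 0.0949% were higher. There 5 had an unadjusted p under 0.05 (the same 3 genes with both Abcb1a probe sets, and Abcg5), where 6.95% of all did. Fraction 1 did not overlap control in 8 of 12 probe sets, or 66.7%, against 40.9% of all; 5 were higher, where 18.8% of all were, and 3 lower, where 22.1% were. Fraction 2 did not overlap control in 7 of 12, or 58.3%, against 35.2% of all; 4 were higher, where 14.8% of all were, and 3 lower, where 20.4% were. The members' median log2 fold change was -0.07 after fraction 1 and 0.08 after fraction 2, beside -0.02 and -0.04 over all tested probe sets. Both comparisons use the same control arrays. A permutation of 2 arrays against 2 cannot give a two-sided p below 0.333, so single values had no test of that kind.

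**Figure D3:**
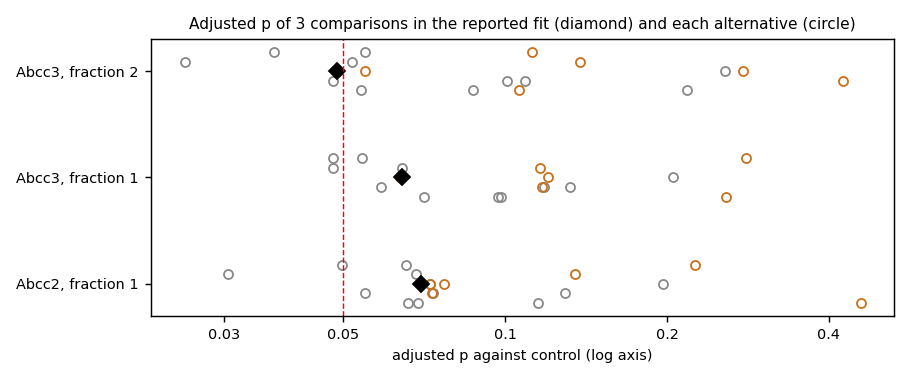
Adjusted p (log axis) of Abcc3 and Abcc2 against control in the reported fit (black diamond) and in each of 18 alternatives (circles, orange where 1 array was left out, grey otherwise); the dashed line marks 0.05. The reported values of 0.0488, 0.0644 and 0.0699 lie close to the line, and the alternatives fall on both sides of it.

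Between the fractions no member passed with limma (0.0136% of all tested probe sets did), and 1, Abcc2, had an unadjusted p under 0.05, where 8.04% of all did. Abcc2 was 1.53-fold higher with fraction 1 (log2 difference 0.62, 95% confidence interval 0.06 to 1.17, adjusted p = 0.585). Abcc3 was 1.32-fold higher with fraction 2 (log2 difference of fraction 1 minus fraction 2 -0.40, -0.81 to 0.02, adjusted p = 0.628). The log2 value of Abcc3 minus that of Abcc2 was 1.74 and 1.78 in control, 1.70 and 1.27 after fraction 1 and 2.29 and 2.71 after fraction 2. On both fraction 2 arrays it lay above the other 4. This value combines the opposite differences of Abcc2 and Abcc3 just given, and how often other pairs part like this was not tested. Abcg2 was lower with fraction 1 (-0.37, -0.76 to 0.02, adjusted p = 0.628). The fractions did not overlap in 7 of 12 probe sets, or 58.3%, against 46.8% of all; 4 were higher with fraction 1, where 25.4% of all were, and 3 lower, where 21.4% were. The 4 higher with fraction 1 include the dimmer Abca1 probe set, which was under the mark for testing on both fraction 2 arrays. For the other tested members the difference ran from -0.27 for the brightest Abca1 probe set to 0.75 for that dimmer one.

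The genes whose log2 values over the 6 arrays were most like those of Abcc3 were Cd36, a fatty acid translocase (r = 0.992), Btbd2 (r = 0.989) and Pvt1, a non-coding RNA (r = 0.980). These are descriptions over the same 6 arrays, 2 in each of 3 groups, among 3628 probe sets that spanned at least 1 on the log2 scale, of which 35 had r over 0.9. Cd36 read 121.1 and 98.7 array units in control, 314.3 and 206.6 after fraction 1 and 463.2 and 326.9 after fraction 2, with fraction 2 highest as for Abcc3. Btbd2 read 68.5 and 66.3, 228.4 and 182.7, and 370.6 and 361.1 in the same order. Pvt1 read 11.5 and 20.6, 181.5 and 82.3, and 252.8 and 168.2. In control both Btbd2 and Pvt1 lay under the array's 40th percentile, which was 93.5 and 116.3 for replicates 1 and 2. They were tested only through fraction arrays, where they were higher. Pvt1 was under the 40th percentile on fraction 1 replicate b as well (82.3 against 105.3). Cd36 was under it in control replicate 2 (98.7) but not in replicate 1 (121.1).

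Of 26 other ABC genes on the array 19 were tested, and none passed in either comparison with control. Their medians were -0.04 after fraction 1 and -0.15 after fraction 2, beside -0.03 and -0.05 over all genes. After fraction 1 the smallest p belonged to Abcd3, a peroxisomal importer of fatty acids (-0.48 ± 0.13, adjusted p = 0.165), and to the mitochondrial Abcb10 (-0.57 ± 0.20, adjusted p = 0.272). After fraction 2 they belonged to Abcg3 (-0.50 ± 0.20, adjusted p = 0.677) and Abcg4 (-0.75 ± 0.38, adjusted p = 0.748).

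Uptake transporters bring the pumps' cargo into the hepatocyte from the blood. Of 7 tested uptake genes, Slco1a4 rose with both fractions and Slco1a1 fell after fraction 1, while the rest did not pass. Slco1a4, an organic anion transporter, read 1167.6 and 988.6 array units in control, 4518.7 and 4586.3 after fraction 1 and 3180.3 and 3372.9 after fraction 2 (log2 fold changes 2.07 and 1.59, adjusted p = 0.00123 and 0.00977). It was highest with fraction 1, though the fractions did not differ past the threshold (adjusted p = 0.519). Its call after fraction 1 held in 18 of 18 alternatives. That after fraction 2 held in 12 of 18, with adjusted p from 0.0073 to 0.196, and was lost without replicate a or b of that fraction (0.106 and 0.196), without a variance trend (0.143), within scan batch 1 alone (0.109), in a fit to the groups compared alone (0.0523) and with chip lot blocked (0.0509). Slco1a1 read 2815 and 2902.9 in control, 398.1 and 106.8 after fraction 1 and 1994 and 1469.2 after fraction 2 (log2 fold changes -3.67 and -0.73, adjusted p = 0.0202 and 0.79), and its call after fraction 1 held in 14 of 18 alternatives. The call was lost without a variance trend (adjusted p = 0.122), within scan batch 1 alone (0.0947), without control replicate 2 (0.0648) and with no filter (0.0646). Slc10a1, the main bile salt importer and named after its values were seen, stood at -0.06 and -0.25 (adjusted p = 0.917 and 0.753). The medians of the list were -0.34 and -0.25.

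Of 11 tested genes for other exit routes and for anchoring the canalicular face none passed, with medians of 0.06 and -0.03. Rdx, whose product radixin tethers Abcc2 to the canalicular membrane, read 3162.3 and 3733.6 array units in control, 2143.9 and 1842.8 after fraction 1 and 2718 and 2592.7 after fraction 2 (log2 fold changes -0.78 and -0.37, adjusted p = 0.0921 and 0.734). All 4 fraction arrays were below both controls. Slc47a1, which exports organic cations into bile, stood at -0.53 after fraction 1 (adjusted p = 0.278), and Ezr, a relative of radixin, at -0.46 after fraction 2 (adjusted p = 0.698).

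Among 17 tested regulators of the pump genes none passed, and their medians were -0.18 after fraction 1 and -0.02 after fraction 2. The smallest p belonged to Srebf2, the regulator of sterol synthesis (0.71 ± 0.25, adjusted p = 0.275), and Nr0b2, an FXR target that represses bile acid synthesis (-0.65 ± 0.25, adjusted p = 0.33), after fraction 1. After fraction 2 they belonged to Rxrb (-0.71 ± 0.25, adjusted p = 0.647) and Srebf2 (0.39 ± 0.25, adjusted p = 0.787). The transcripts of the receptors themselves, named here after their values were seen, stood at 0.36 and 0.08 for PXR (Nr1i2), 0.10 and 0.18 for CAR (Nr1i3) and 0.00 and -0.13 for FXR (Nr1h4). Nfe2l2, which encodes Nrf2, stood at -0.27 and 0.31.

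Of 13 tested enzymes known as targets of CAR and PXR, 6 passed as higher after fraction 1 and 4 after fraction 2. None passed as lower. Over all tested probe sets 0.712% and 0.108% passed in either direction. All 13 stood above 0 after fraction 1, and 10 above and 3 below 0 after fraction 2. Among those that did not pass, Cyp3a11 stood at 0.16 and -0.01 and Aldh1a1 at 0.19 and -0.07. The medians were 0.83 and 0.45, beside -0.03 and -0.05 over all genes. Higher with both fractions were Cyp2c55 (5.12 and 4.62), Cyp2b10 (4.15 and 2.83), Gstm2 (2.21 and 1.76) and Gstm3 (1.89 and 1.72). Gstm2 after fraction 2 lay at the edge of the threshold (adjusted p = 0.0488), whereas the other 3 had adjusted p of 0.00918 or less with either fraction. These calls were not rerun under the alternatives. Ces2a and Aldh1a7 passed after fraction 1 (1.07 and 0.78) and stood at 0.78 and 0.45 after fraction 2 (adjusted p = 0.103 and 0.533). None of these differed between the fractions past the threshold. Gstm2 and Gstm3 belong to a family of near-identical genes whose probes may share transcripts. This list was chosen with earlier results of these samples known and is not independent evidence of its direction. No LXR target of 10 passed, with medians of 0.05 and 0.02: Srebf1 and Cyp7a1 stood at -0.91 and 1.06 after fraction 1 (adjusted p = 0.159 and 0.277), and Pltp and Lpcat3 at 1.20 and 0.35 after fraction 2 (adjusted p = 0.227 and 0.793). Of 10 sterol and bile lipid partners none passed either, with medians of 0.07 and 0.09. Among them Scp2 and Cyp8b1 stood at -0.71 and 0.69 after fraction 1 (adjusted p = 0.11 and 0.151), and Cyp8b1 and Pctp, a phosphatidylcholine transfer protein, at 0.78 and 0.86 after fraction 2 (adjusted p = 0.378 and 0.547).

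No marker of a cell type passed the test, but some summed signals followed the groups. That of 7 hepatocyte markers was 123752 to 138334 array units in control, 108426 to 120037 after fraction 1 and 97899.3 to 104282 after fraction 2. That of 6 endothelial markers was 2746.9 to 3338.7, 1804.2 to 2316.1 and 2417.3 to 2583.8, and that of 6 stellate cell markers, of which 5 were tested, 3461.2 to 4105.8, 2146 to 2306 and 2741.4 to 2798.6. In each of these 3 sums the fractions lay below control, but the endothelial and stellate sums rest mostly on a few bright genes. Apoa1 and Ttr were the brightest hepatocyte markers. Without them the hepatocyte sums were 68626.3 and 73230.1 in control, 67550.3 and 63076.2 after fraction 1 and 59504 and 55276.2 after fraction 2. Every fraction array thus stayed below both controls, though fraction 1 replicate a lay next to control replicate 1. After fraction 1, 5 hepatocyte markers stood below 0 and 2 above, Tat at 0.41 and Cps1 at 0.10. After fraction 2, 6 stood below 0 and 1 above, Asgr1 at 0.05. Reln, the brightest stellate marker, read 2531.4 and 2963.1 in control, 1467.6 and 1092.1 after fraction 1 and 1883.2 and 1745.3 after fraction 2. Without Reln the stellate sums overlapped, at 929.8 and 1142.7 in control, 838.4 and 1053.9 after fraction 1 and 858.2 and 1053.3 after fraction 2. Without Stab2 and Kdr, the brightest endothelial markers, the endothelial sums overlapped too, at 680.2 and 894.4, 773.3 and 632.3, and 797.3 and 709.1. After fraction 1, 3 of the 5 tested stellate markers stood below 0 and 2 above, Col1a1 at 0.14 and Acta2 at 0.03. Of the 6 endothelial markers 4 stood below 0 and 2 above, Cdh5 at 0.12 and Lyve1 at 0.02. The sum of 8 Kupffer cell markers was 7754.9 to 9023.1 in control, 6911 to 7706.8 after fraction 1 and 7564.1 to 8050.1 after fraction 2, so fraction 1 lay below control and fraction 2 overlapped it. After fraction 1, 6 of these 8 markers stood below 0 and 2 above, Marco at 0.46 and C1qa at 0.19. The sum of 5 cholangiocyte markers overlapped, at 237.6 to 285.7, 190.2 to 362.9 and 235.5 to 264.9; only Krt19 was tested, and Sox9, Krt7, Epcam and Cftr were too dim. The part of these cells, of RNA quality and of scan batch in the members' values was not tested beyond the values given.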

How the data were processed

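Liver RNA of 6 samples in 3 groups, taken from the sample titles, was measured on 1-colour arrays. The deposited table gives 1 signal intensity per probe set and array on a linear scale. How it was summarised is not given in the sources used here. Trimmed means, without the lowest and highest 2%, were equal over the arrays within 0.00589%, so the authors' values were used as deposited. Scan batch and chip lot came from the arrays' experiment files, per the file headers.

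Signals were taken as log2(signal + 16), and 64 control probe sets were left out. Testing required a value at or above the array's own 40th percentile on 2 or more arrays, which left 14755 probe sets. For genes outside the members, the brightest tested probe set with 1 symbol stood for the gene. Members included, 9209 genes had such a probe set. All 6 arrays entered 1 fit by limma 3.58.1 under R 4.3.3, using lmFit and then eBayes with its trend option (residual degrees of freedom 3, prior 5.43). Two-sided p-values were adjusted by Benjamini and Hochberg's method across those 14755 probe sets, and 0.05 was the threshold. The fit was also run on simulated data with independent noise. Those held no effect of scan batch, chip lot or RNA quality, so that run cannot speak to them. Figures used Python 3.11.15 and matplotlib 3.10.9.

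The members, the gene lists and the alternatives were chosen with earlier results of these data known. All members are named; of each related list the genes past the threshold in any comparison are named, or the 2 with the smallest p. For a member past the threshold, the 3 genes with the highest Pearson r that span at least 1 on the log2 scale are named. Alternatives were other scalings, pseudocounts, filters and fits, batch blocks, and leaving out each array; counts over the related lists come from the reported fit alone.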

Additional observations from a re-analysis of the deposited data

How the results depend on the processing

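The number of members past the threshold after fraction 1 was 0 in the reported fit and 2 (Abcc2 and Abcc3, both higher) with scan batch as a block and with chip lot as a block. After fraction 2 it was 1 (Abcc3) in the reported fit, with a pseudocount of 1, a floor of 50, a filter at the 60th percentile and scan batch as a block. It was 0 with quantile normalization, median centring, a pseudocount of 64, no filter, no variance trend, chip lot as a block, scan batch 1 alone and a fit to the groups compared alone, and 0 to 0 over the 6 fits that left out 1 array, where the array left alone in its group borrows its spread from the rest. Between the fractions it was 0 in all alternatives, among them the fit with the shared letters a and b as a replicate block, which raised the count over all probe sets from 2 to 75; same-letter arrays deviated together with r = 0.03 over 2 pairs, so the letters were not taken as pairs.

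Of 654 alternative fold changes of the members, 610 kept their sign and their side of the threshold, 18 kept the sign but crossed the threshold (14 lost a call, 4 gained one), and 26 turned the sign, none of them past the threshold. After fraction 1, Abca1 1421839_at was at 0.017 with median centring and 0.011 with chip lot as a block, and ran from -0.36 to 0.33 without 1 array. Abca1 1421840_at was at 0.12 and 0.16 with scan batch and chip lot as a block, at 0.23 within scan batch 1, and ran from -0.47 to 0.23 without 1 array. Abcc6 ran from -0.53 to 0.081. After fraction 2, Abcb4 was at 0.10 with median centring, 0.049 with chip lot as a block and 0.0072 within scan batch 1, and ran from -0.15 to 0.13 without 1 array. Abcg8 was at 0.023 with median centring. Without 1 array Abcb11 ran from -0.051 to 0.20, Abcc6 from -0.52 to 0.089 and Abca1 1421840_at from -0.20 to 0.50. Between the fractions, the brighter Abcb1a probe set was at -0.0086 with scan batch as a block and -0.10 within scan batch 1, and ran from -0.10 to 0.30 without 1 array. There Abcc6 was at 0.034 after quantile normalization and ran from -0.27 to 0.25. Median centring moved the median of all fold changes after fraction 2 from -0.04 to 0.07, a shift relative to which changes of 0.1 have no direction. The alternatives for Slco1a1 and Slco1a4 were chosen after seeing the data and turned no sign. Over all probe sets, the alternatives gave 12 to 149 calls after fraction 1 (105 as reported), 2 to 28 after fraction 2 (16) and 0 to 75 between the fractions (2). Causes were not tested. With 2 arrays a group, the median standard error of a member's log2 fold change was 0.20.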

Other observations

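Among other ABC genes, 7 were too dim to be tested. Of these Abcb9, a peptide transporter of the lysosome, had a probe set (1416264_at) at 19.3 and 27.9 array units in control, 80.7 and 74.1 after fraction 1 and 67.8 and 26 after fraction 2. A brighter one of the same gene (1416263_at) read 48.3 and 45.6, 92.2 and 63.9, and 80.4 and 51.7, so all 4 fraction arrays were above both controls there. The remaining one (1430394_a_at) read 4.6 and 6.4, 4.7 and 4.7, and 7.3 and 5.1, and its groups overlapped. Slc22a7, an uptake transporter of organic anions, read 959.1 and 1815.4 array units in control, 337.2 and 326.1 after fraction 1 and 324.2 and 565.5 after fraction 2 (log2 fold changes -1.94 and -1.59, limma, adjusted p = 0.0512 and 0.347). Abcb9 and Slc22a7 are named here after their values were seen.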
